A study of Mus musculus with 12 samples.

Results

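The genes described here are the interleukins, the interferons and the tumor necrosis factor (TNF) family, taken as every gene name in the peak lists that starts with Il and a digit, with Ifn or with Tnf, plus Lta and Ltb. They were 120 of the 14146 gene names in the lists, and their peaks made 1547 of 295704 peak and gene entries. Ltb itself had no peak. DNA methylation was profiled in adult hippocampus by MeDIP-Seq, in which fragments bound by an antibody against 5-methylcytosine are sequenced and peaks mark where they pile up over unenriched input DNA. All mice were C57BL/6 males (C57BL/6J in the methods of the study) at postnatal day 70 and belonged to 4 groups with 2 enriched libraries and 1 input library each. Control mice had no intervention. Ethanol mice had dams that drank 10% ethanol in water by choice during gestation and up to postnatal day 10, and the pups stayed with the dam. Stress mice had dams given water only and spent 3 h of each day alone, away from the nest, between postnatal days 2 and 14. Ethanol + stress mice had both treatments. Each library came from 1 mouse, the input of a group came from another mouse of that group, and the separated mice were drawn from within litters, so unseparated mice had littermates that were removed each day. The labelled tissue could not be checked against marker genes, since the peaks carry no expression.

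Interleukins, interferons and TNF ligands are secreted or membrane-bound signals of immune cells and, in brain, of microglia and astrocytes. They act through paired receptor chains that pass the signal to JAK kinases and STAT factors, or through TRAF adaptors to NF-kB. Methylation near the promoters of such genes is known as one of the layers that keep them silent in cells that do not use them.

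The peaks of these genes lay over sequence of very different kinds, shown first for the promoters whose peaks the group comparisons turn on. Each line gives 200 bases around the summit of the strongest promoter peak of the gene, from the mm10 genome plus strand, with every CpG in capitals. The windows of Tnf and Lta, neighbours on chromosome 17, held 6 and 4 CpG, that of Il12a held 8 and that of Tnfrsf1a held 10. The windows of Il5 and Il20 held 0 CpG, and in that of Il5 a run of 111 bases was made of c and t only.
Tnf, chr17:35201392-35201591: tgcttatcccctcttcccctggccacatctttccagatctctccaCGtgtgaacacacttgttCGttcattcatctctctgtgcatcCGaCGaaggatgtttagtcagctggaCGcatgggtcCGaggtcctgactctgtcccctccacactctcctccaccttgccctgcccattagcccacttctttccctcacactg
Lta, chr17:35204663-35204862: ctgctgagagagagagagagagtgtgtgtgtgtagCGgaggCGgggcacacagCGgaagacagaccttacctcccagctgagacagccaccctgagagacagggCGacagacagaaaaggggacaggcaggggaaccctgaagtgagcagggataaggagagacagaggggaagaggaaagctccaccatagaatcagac
Il12a, chr3:68691095-68691294: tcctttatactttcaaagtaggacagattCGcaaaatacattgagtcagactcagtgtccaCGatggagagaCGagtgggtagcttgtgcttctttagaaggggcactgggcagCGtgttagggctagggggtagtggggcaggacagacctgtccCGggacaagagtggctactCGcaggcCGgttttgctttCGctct
Tnfrsf1a, chr6:125350282-125350481: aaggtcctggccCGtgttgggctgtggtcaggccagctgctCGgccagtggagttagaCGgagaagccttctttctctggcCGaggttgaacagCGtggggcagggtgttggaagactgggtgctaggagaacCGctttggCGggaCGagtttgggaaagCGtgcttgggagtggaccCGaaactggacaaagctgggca
Il5, chr11:53721488-53721687: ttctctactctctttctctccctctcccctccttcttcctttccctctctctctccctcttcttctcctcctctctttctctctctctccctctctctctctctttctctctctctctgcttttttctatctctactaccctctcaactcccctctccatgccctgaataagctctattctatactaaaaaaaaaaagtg
Il20, chr1:130909818-130910017: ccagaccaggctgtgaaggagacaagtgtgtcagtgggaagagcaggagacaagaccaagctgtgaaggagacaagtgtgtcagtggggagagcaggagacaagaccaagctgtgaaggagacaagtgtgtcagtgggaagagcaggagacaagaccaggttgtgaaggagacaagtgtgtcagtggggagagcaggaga

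The only 2 promoters of these genes with a peak in all 8 libraries belonged to interferon alpha genes, and both windows again held 0 CpG and alternated ca or tg steps with other bases.
Ifna2, chr4:88684858-88685057: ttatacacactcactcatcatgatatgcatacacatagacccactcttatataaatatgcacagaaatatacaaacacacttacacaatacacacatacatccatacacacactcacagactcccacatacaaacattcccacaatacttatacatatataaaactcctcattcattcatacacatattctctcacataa
Ifna11, chr4:88818390-88818589: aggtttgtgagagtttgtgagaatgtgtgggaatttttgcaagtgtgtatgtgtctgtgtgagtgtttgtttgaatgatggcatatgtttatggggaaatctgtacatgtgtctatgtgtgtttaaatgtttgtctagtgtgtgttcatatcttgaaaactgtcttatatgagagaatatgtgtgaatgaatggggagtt

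The strongest regions outside promoters are shown because they share sequence with each other, as described with their values further on. They held 12 CpG near Il1rl2, 10 near Il7 and 13 near Il21 in the 200 bases around the summit.
Il1rl2, chr1:40307459-40307658: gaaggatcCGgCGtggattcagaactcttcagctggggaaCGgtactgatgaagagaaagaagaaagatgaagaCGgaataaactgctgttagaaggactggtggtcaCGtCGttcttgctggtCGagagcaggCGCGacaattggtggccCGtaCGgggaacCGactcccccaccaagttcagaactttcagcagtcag
Il7, chr3:7778010-7778209: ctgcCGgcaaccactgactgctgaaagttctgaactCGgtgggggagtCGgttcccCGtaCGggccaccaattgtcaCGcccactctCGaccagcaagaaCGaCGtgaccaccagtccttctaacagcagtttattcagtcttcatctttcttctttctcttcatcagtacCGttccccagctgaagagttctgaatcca
Il21, chr3:37216835-37217034: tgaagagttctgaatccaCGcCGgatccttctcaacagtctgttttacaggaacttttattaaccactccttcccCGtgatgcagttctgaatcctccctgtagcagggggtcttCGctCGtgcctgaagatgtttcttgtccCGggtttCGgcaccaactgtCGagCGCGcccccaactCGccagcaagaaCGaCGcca

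The last set comes from regions with a peak in all 4 separated libraries and in no unseparated one, near the interferon gamma gene Ifng, with 2 CpG in a tg-rich stretch, and near the shared receptor chain Il6st, with 13 CpG.
Ifng, chr10:118611593-118611792: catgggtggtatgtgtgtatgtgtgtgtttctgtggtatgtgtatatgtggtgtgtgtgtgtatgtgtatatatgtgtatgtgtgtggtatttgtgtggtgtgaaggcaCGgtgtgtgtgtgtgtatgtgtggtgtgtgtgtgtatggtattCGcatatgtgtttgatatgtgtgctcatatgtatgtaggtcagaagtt
Il6st, chr13:112518276-112518475: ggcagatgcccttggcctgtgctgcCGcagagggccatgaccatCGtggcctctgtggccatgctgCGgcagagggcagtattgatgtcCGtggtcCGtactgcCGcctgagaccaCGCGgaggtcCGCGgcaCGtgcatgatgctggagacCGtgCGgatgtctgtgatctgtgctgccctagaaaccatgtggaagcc

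The number of peaks of these genes followed the number of all peaks in a library. They had 136 and 125 peaks in the Control libraries, 242 and 124 in Ethanol, 219 and 266 in Stress, and 242 and 193 in Ethanol + stress. As a share of all peaks they stayed between 0.492% and 0.561% in every library. The libraries themselves held from 22805 peaks in Ethanol 2 to 51747 in Stress 2, with 27655 and 24017 in Control, so both Control libraries and Ethanol 2 were the sparsest. The share of peaks was 0.506% ± 0.0203 in Control, 0.535% ± 0.0122 in Ethanol, 0.529% ± 0.0219 in Stress and 0.547% ± 0.0194 in Ethanol + stress (SD, n = 2 each). Separated exceeded unseparated libraries by 0.0178 percentage points, less than the SD within either set. With equal numbers of peaks per library this difference was larger, as given with the other settings at the end. Median fold enrichment over the group's input lay between 6.97 and 8.44 for these genes in the 8 libraries and between 6.97 and 8.22 for all peaks. A group and the input library it was called against cannot be told apart in these lists, and read depth is not in them. A missing peak means only that enrichment did not pass the caller's threshold in that library.

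**Figure D1:**
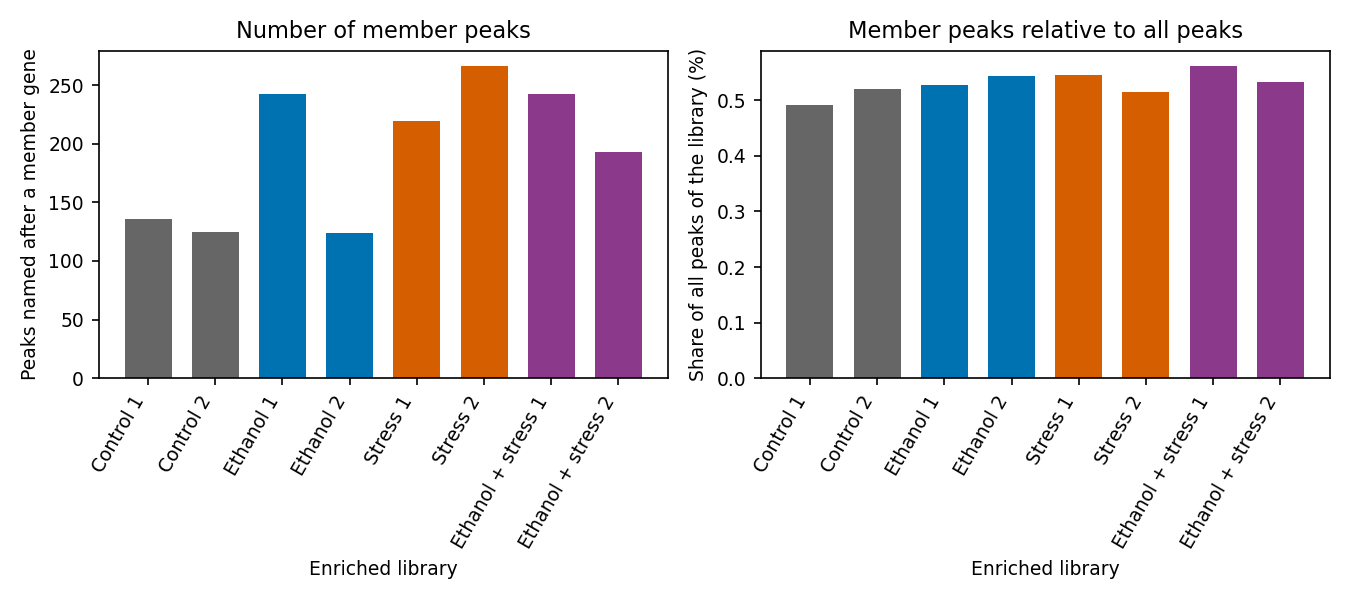
Peaks named after an interleukin, interferon or TNF family gene in each of the 8 enriched libraries, as a number (left axis) and as a percent of all peaks of the library (right axis), 1 bar per library, coloured by group. The number ranged from 124 in Ethanol 2 to 266 in Stress 2, while the share stayed between 0.492% and 0.561%.

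Merged over libraries, with peaks joined where they shared at least 1 base, the genes had 516 of 91177 regions. By the place of the summit in the GENCODE annotation, 296 regions lay between genes, 126 in an intron of the gene they were named after and 79 inside another gene. The gene name is thus that of the nearest start site and not always of the gene around the peak. Their entries lay closer to the start site than those of other genes, at a median of 25752 bp against 54029 bp, and 5.04% were in the promoter class against 2.80% of all entries. Of these regions 214 (41.5%) were seen in a single library and 46 (8.91%) in all 8, against 38.7% and 9.76% of all regions. Peaks were found in all 8 libraries for 35 genes and in a single library for 17. RefSeq lists 152 protein-coding genes with such names, and 33 of them had no peak, among them Il1a, Il18, Il23a, Il2rg, Tnfrsf4, Tnfrsf18 and 9 interferon genes. The symbol Il8 stands in the lists for a mouse gene that RefSeq calls Cxcl15, a chemokine, with 2 regions.

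The 5 genes with most regions held 93 of them. Il20rb, a receptor chain for IL-10 family cytokines, had 24. Ifng had 20, Tnfsf11, the RANK ligand, and Il12b, the shared subunit of IL-12 and IL-23, had 17 each, and Ifnk, a type I interferon of skin, had 15. Of the 24 Il20rb regions 10 had a peak in a single library and 3 in all 8, and of the 20 Ifng regions 9 and 3. Among all regions in the lists, 38.7% had a peak in a single library and 9.76% in all 8. The Ifng regions reached from 69720 bp before to 200806 bp after its start site, and none was in its promoter.

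Promoter peaks, with the summit within 2000 bp of a start site, were present for 30 of these genes in at least 1 library, of 2343 genes in all. Control libraries had 3 and 6 such genes, Ethanol 12 and 6, Stress 10 and 14, and Ethanol + stress 16 and 10. The group means were 4.50 ± 2.12, 9.0 ± 4.24, 12.0 ± 2.83 and 13.0 ± 4.24 (SD, n = 2 each), and the ranges of the 3 treated groups overlapped. Separated libraries had 12.5 ± 3.0 and unseparated ones 6.75 ± 3.77 (SD, n = 4 each), a difference of 5.75 genes that was 1.5 with equal numbers of peaks per library. Promoter peaks were infrequent per gene: 13 genes had one in a single library, 6 of them in Stress 2, the library with most peaks, and 24 of the 30 had none in either Control library, against 59.9% of all genes with a promoter peak. The 78 promoter peaks lay downstream of the start site in 49 cases and upstream in 29, and 28 had their summit within 1000 bp.

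**Figure D2:**
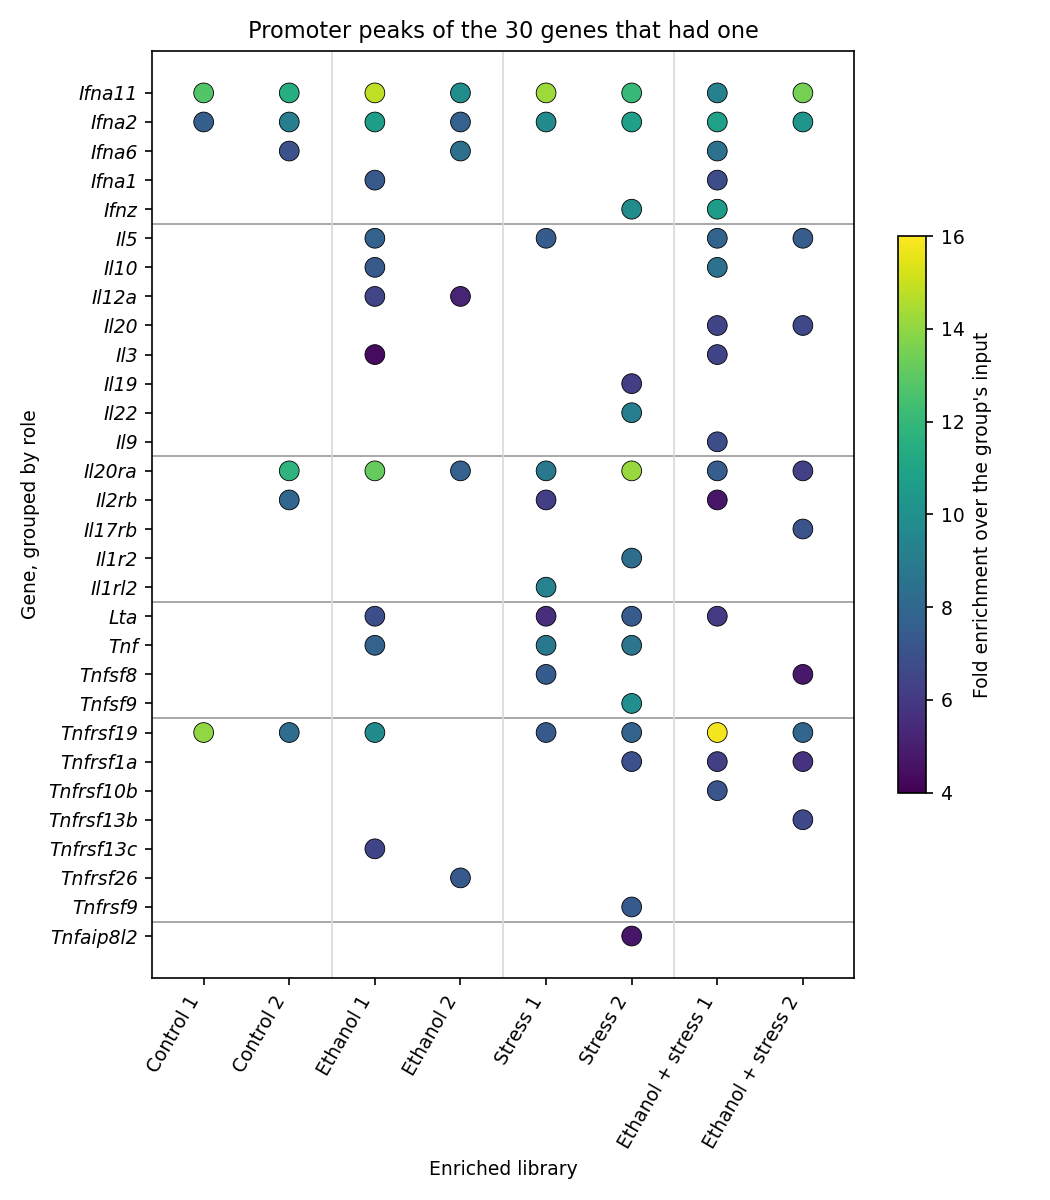
Promoter peaks of the 30 genes with at least 1, by library (horizontal) and gene (vertical, grouped as interferons, interleukins, interleukin receptors, TNF ligands, TNF receptors and a TNF-induced gene). A filled point is a peak, its colour is the fold enrichment over the group's input (the higher where there were 2), and no point means no promoter peak. Ifna11 and Ifna2 have a point in all 8 libraries, Il20ra and Tnfrsf19 in 7, and 13 genes in 1.

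Among the interferons, 5 genes had a promoter peak and all lay in the interferon cluster of chromosome 4. Ifna11, coding for a type I interferon, had a peak 974 to 1557 bp upstream in every library, with fold enrichment of 12.8 and 11.4 in Control, 14.8 and 9.83 in Ethanol, 14.2 and 12.0 in Stress, and 9.21 and 13.5 in Ethanol + stress. The groups overlapped. Ifna2 had its peak 1179 to 1288 bp upstream, at 7.54 and 9.10 in Control, 10.6 and 7.68 in Ethanol, 9.70 and 10.8 in Stress, and 10.9 and 10.3 in Ethanol + stress. As folds all 4 separated libraries were above both Control libraries, but after centring on the median of each library they overlapped, with a log2 difference of Stress from Control of -0.05 ± 0.30 (SE, limma, adjusted p = 0.948). Ifna6 had a peak in Control 2, Ethanol 2 and Ethanol + stress 1, Ifna1 in Ethanol 1 and Ethanol + stress 1, and Ifnz in Stress 2 and Ethanol + stress 1. The start sites of Ifna11 and Ifna6 are 7497 bp apart, and Ifna2 and Ifnz 98351 bp.

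Among the interleukins, 8 genes had a promoter peak, none of them in a Control library, as was also the case for 59.9% of all 2343 promoter genes. Il5, the growth factor of eosinophils, had one in 4 libraries, at 7.71 in Ethanol 1, 7.44 in Stress 1, and 7.82 and 7.51 in Ethanol + stress. These folds were nearly equal, and the peaks lay in an intron 763 to 961 bp downstream. Il12a, a subunit of IL-12, had one only in Ethanol, at 6.45 and 5.18, with summits 228 and 328 bp upstream. Il20, an IL-10 family cytokine, had one only in Ethanol + stress, at 6.43 and 6.60, in an intron 1371 and 1378 bp downstream. Il10, the anti-inflammatory cytokine, had one in Ethanol 1 and Ethanol + stress 1, at 7.29 and 8.51, 341 and 369 bp downstream, which are single libraries of their groups. Il3 had one in the same 2 libraries, and Il9, Il19 and Il22 in a single library each. Il10, Il19 and Il20 are neighbours on chromosome 1, with start sites 27945 and 80603 bp apart.

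Among the interleukin receptors, Il20ra, a chain of the receptors for IL-19, IL-20 and IL-24, had a promoter peak in all libraries but Control 1. Its folds were 11.7 in Control 2, 13.1 and 7.68 in Ethanol, 8.80 and 14.1 in Stress, and 7.51 and 6.33 in Ethanol + stress. Both Ethanol + stress values were below all other values. Il2rb had a promoter peak in 3 libraries, and Il17rb, Il1r2 and Il1rl2 in 1 each.

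Among the TNF ligands, Tnf and Lta stood out by position, since they are adjacent, with start sites 3355 bp apart. Tnf, coding for the founding cytokine of the family, had a peak in its intron 504 to 578 bp downstream, at 8.80 and 8.64 in Stress and 7.71 in Ethanol 1. Neither Control, neither Ethanol + stress library nor Ethanol 2 had one. Lta, coding for lymphotoxin alpha, had its peak 520 to 670 bp downstream, at 5.63 and 7.38 in Stress, 6.83 in Ethanol 1 and 6.08 in Ethanol + stress 1. Each of these libraries had more peaks in all than either Control library. Tnfsf8 had a promoter peak in Stress 1 and Ethanol + stress 2, and Tnfsf9 in Stress 2.

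Among the TNF receptors, Tnfrsf19, the receptor also called TROY, had a promoter peak in all libraries but Ethanol 2, at 14.0 and 8.19 in Control, 9.80 in Ethanol 1, 7.37 and 7.82 in Stress, and 15.8 and 7.97 in Ethanol + stress. Replicates of the same group differed by nearly as much as the whole range. Tnfrsf1a, the main receptor for TNF, had promoter peaks in Stress 2 at 6.95 and in Ethanol + stress at 6.23 and 5.76. The summits of the last pair were 775 and 1837 bp downstream and in separate regions. In the region of the farther one, peaks with summits just outside 2000 bp were also present in Control 1 at 6.13 and in Ethanol 1 at 6.87, so the difference from Control at Tnfrsf1a depends on the limit. The other 5 receptors each had a promoter peak in 1 library, and of the TNF-induced genes Tnfaip8l2 had one in Stress 2.

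The groups were compared by presence: a promoter counted as gained when both libraries of a treated group had a peak and neither Control library did, and as lost in the opposite case. The 3 comparisons share the Control libraries, and with 2 against 2 libraries the smallest exact p is 0.33, so these are counts with no test. In Ethanol 1 of the 30 promoters was gained, Il12a (3.33%), against 2.6% of all 2343 promoters. In Stress 2 were gained, Tnf and Lta (6.67%), against 9.05%. In Ethanol + stress 3 were gained, Il5, Il20 and Tnfrsf1a (10.0%), against 5.76%. No promoter of these genes was lost in any group, against 1.2%, 1.07% and 0.683% of all promoters. With counts of 0 to 3 among 30 genes, none of these shares can be told from the background. When each library was cut to its 22805 strongest peaks, Il5 in Ethanol + stress was the only gained promoter left, and the count in Ethanol and in Stress was 0. The share of all promoters is not given for this cut.

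The same comparison was made over all 516 regions, promoter regions included. In Ethanol 12 regions of 11 genes were gained (2.33%, against 2.82% of all regions) and 1 was lost (0.194%, against 0.93%). In Stress 46 regions of 35 genes were gained (8.91%, against 8.93%) and 3 were lost (0.581%, against 0.847%). In Ethanol + stress 33 regions of 28 genes were gained (6.4%, against 5.54%) and 1 was lost (0.194%, against 0.656%). The share gained was thus close to that of all regions in each group. Cut to equal numbers of peaks, the gained and lost counts were 3 and 8 in Ethanol, 12 and 10 in Stress, and 9 and 10 in Ethanol + stress. The excess of gained over lost regions was then no longer seen in Ethanol or Ethanol + stress, and was small in Stress. The cut lists were not counted over all regions, so these counts have no background share beside them. By role, the regions gained in Stress and in Ethanol + stress were 18 and 10 of 155 for interleukin receptors, 10 and 10 of 134 for interleukins, 5 and 3 of 40 for interferon receptors, and 2 and 1 of 57 for TNF receptors. Differences between roles were not tested.

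The gained regions named here lay outside promoters and ranked highest among the gained regions of these genes. The rank used the lowest percentile of fold within any library with a peak. That percentile was 38.5 near Il7r and 25.7 for the region 409427 bp upstream of Il7, so not all were strong peaks of their libraries. In Stress they included a region near Il17c, an epithelial cytokine, at 11.5 and 15.0, which lies in a coding exon of Zc3h18, and had a peak at 9.43 in Ethanol 1. A region 17402 bp upstream of Ifnk, in an intron of Mob3b, had peaks in Stress alone, at 8.35 and 13.3. An intron of Il10ra, the IL-10 receptor chain, had 11.1 and 8.35 in Stress and 13.7 in Ethanol 1. A region 182520 bp upstream of Il7, the lymphocyte growth factor, had 8.27 and 9.06 in Stress, 9.83 in Ethanol 2 and 9.81 in Ethanol + stress 2. Of these 4 only the Ifnk region was confined to the Stress libraries.

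An intron of Ifngr1, the ligand-binding chain of the interferon gamma receptor, was gained in both separated groups, at 9.17 and 8.90 in Stress and 10.9 and 8.89 in Ethanol + stress, with 9.80 in Ethanol 1. No peak was called there in Control or Ethanol 2. In Ethanol + stress, a region 200806 bp downstream of Ifng had 7.82 and 8.43, and 8.54 in Ethanol 1. A region 66541 bp upstream of Tnfsf11 had 7.82 and 7.51, with 7.68 in Ethanol 2 and 8.80 in Stress 1. A region 9273 bp upstream of Il11ra2, an IL-11 receptor gene, had peaks in Ethanol + stress alone, at 11.3 and 7.51, and an intron of Il17rd had 7.82 and 9.35 there, with 7.79 in Ethanol 1 and 9.06 in Stress 2. Il11ra2 is among near-identical copies in the mouse genome, so reads there may be split between copies.

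In Ethanol, the region near Il7r, the IL-7 receptor chain, had peaks in that group alone, at 7.71 and 6.61, and so did a region 89923 bp upstream of Il15, at 6.87 and 6.61, with 0 CpG. The region near Tnfsf18 had 7.29 and 6.61 in Ethanol and 9.25 in Stress 1. A region near Il1r2, the decoy receptor of IL-1, lay in a coding exon of Map4k4 and had a peak in all 6 treated libraries and in neither Control library, at 6.87 and 7.32 in Ethanol, 6.99 and 11.2 in Stress, and 8.57 and 9.81 in Ethanol + stress. A region 409427 bp upstream of Il7 had peaks in 5 of the 6 treated libraries, from 6.18 to 8.55. Among the lost regions, one 30455 bp upstream of Tnfsf10, the TRAIL ligand, had 6.89 and 8.19 in Control, none in Ethanol or Stress, and 7.12 in Ethanol + stress 1. The lost regions in Stress also lay near Tnfsf9 and Il11ra2, at 5.52 to 7.40 in Control. The Tnfsf9 region also had 9.38 in Ethanol 1 and 7.47 and 10.3 in Ethanol + stress, and the Il11ra2 region 4.48 in Ethanol 1 and 6.15 and 8.33 in Ethanol + stress. The lost region in Ethanol + stress lay 12935 bp downstream of Ifng, at 6.89 and 8.78 in Control, with 7.39 in Ethanol 1 and 10.3 in Stress 2.

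Over all 8 libraries, the 4 separated were compared with the 4 unseparated, and the 4 ethanol-exposed with the 4 unexposed. Of the 516 regions, 7 (1.36%) had a peak in every separated library and no unseparated one, against 0.406% of all regions, and 0 showed the reverse, against 0.00877%. Only 1 region (0.194%) had a peak in every ethanol-exposed library and no other, against 0.0834%, and 0 showed the reverse, against 0.0417%. By Fisher's exact test over all regions, two-sided, the smallest p possible is 0.0286 and the adjusted p is 1 (Benjamini-Hochberg), so 0 regions passed for either factor, with 378 and 114 of all regions at an unadjusted p under 0.05. With equal numbers of peaks per library, regions of separated and of ethanol-exposed libraries alone numbered 0 each. Those of unseparated and of unexposed libraries alone then numbered 1 each. With this cut, too, all regions were not counted.

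The 7 separation regions were near genes of several systems. In the region 25444 bp upstream of Il1rl2, the receptor for IL-36 cytokines, which lies in an intron of Il1r1, the folds were 8.80 and 8.22 in Stress and 5.04 and 9.35 in Ethanol + stress. Near Il1f8, which codes for a ligand of that receptor, they were 5.502 and 5.93, and 5.04 and 6.60. The Il1f8 region was 98.4% repeat-masked and shared 90 identical bases with a region near Il7r. In the same order, the region 170647 bp downstream of Ifng had 6.99 and 6.95, and 4.75 and 6.38. The region 11540 bp upstream of Ifngr2, the second chain of the interferon gamma receptor, had 7.89 and 9.49, and 7.51 and 5.46. The region 54307 bp from Il6st, the chain shared by IL-6 family receptors, had 4.67 and 7.99, and 8.86 and 7.06. Introns of Il17rd, a regulator of growth factor and IL-17 signals, had 9.25 and 12.4, and 7.26 and 5.64, and introns of Il22ra1, the IL-22 receptor chain, 5.18 and 10.8, and 4.69 and 6.14. Of the 28 folds, 19 were at or below the median of their library, which was 7.47 to 8.22 in the separated libraries. The ethanol region lay 29983 bp upstream of Il17b, in an intron of Carmn, with 9.38 and 5.54 in Ethanol and 5.92 and 6.06 in Ethanol + stress.

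**Figure D3:**
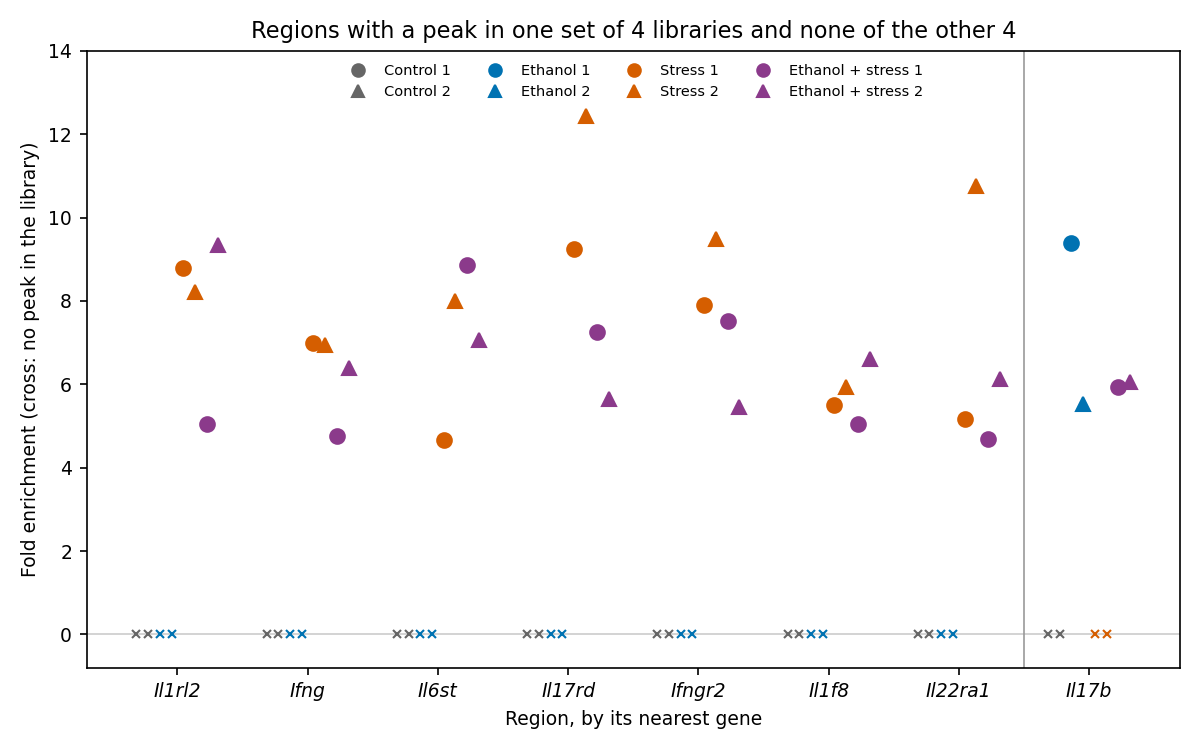
Fold enrichment (vertical) in each library at the 7 regions with a peak in all separated and no unseparated library, and right of the line at the region with a peak in all ethanol-exposed and no unexposed library. Points are libraries coloured by group, circles replicate 1 and triangles replicate 2, and a cross at 0 marks a library with no peak, not a measured value. Separated libraries lie between 4.67 and 12.4.

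At the strongest regions, which had a peak in all 8 libraries, the folds of replicates spread widely. The strongest was chr1:40306819-40308088 (mm10), 17067 bp upstream of Il1rl2, with folds of 28.2 and 24.8 in Control, 35.3 and 17.7 in Ethanol, 34.6 and 50.01 in Stress, and 30.1 and 35.0 in Ethanol + stress. Near Il7 the folds were 24.9 and 28.3, 31.2 and 15.1, 36.9 and 47.5, and 41.2 and 28.1 in the same order of groups. Near Tnfsf11 they were 17.6 and 19.1, 39.0 and 15.97, 17.0 and 34.8, and 32.1 and 30.6. Near Il21, a T cell cytokine, they were 23.2 and 24.8, 41.4 and 11.8, 24.2 and 39.5, and 22.0 and 15.7. As folds and also after centring on the median of each library, Stress was above Control with no overlap near Il1rl2 and Il7, and Ethanol + stress was above it near Tnfsf11 and below it near Il21. Near Il1rl2 Ethanol + stress was above Control as folds but overlapped it after centring. None of these passed the test that follows. In 9 of the 10 strongest regions the lowest value was in Ethanol 2, which also had the lowest median fold over all peaks, 6.97. The rest of the 10 lay near Il12a, Tnfrsf8, which codes for CD30, Il21r (2 regions), Il1r1 and Il12b, with medians over libraries from 15.4 to 18.3.

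**Figure D4:**
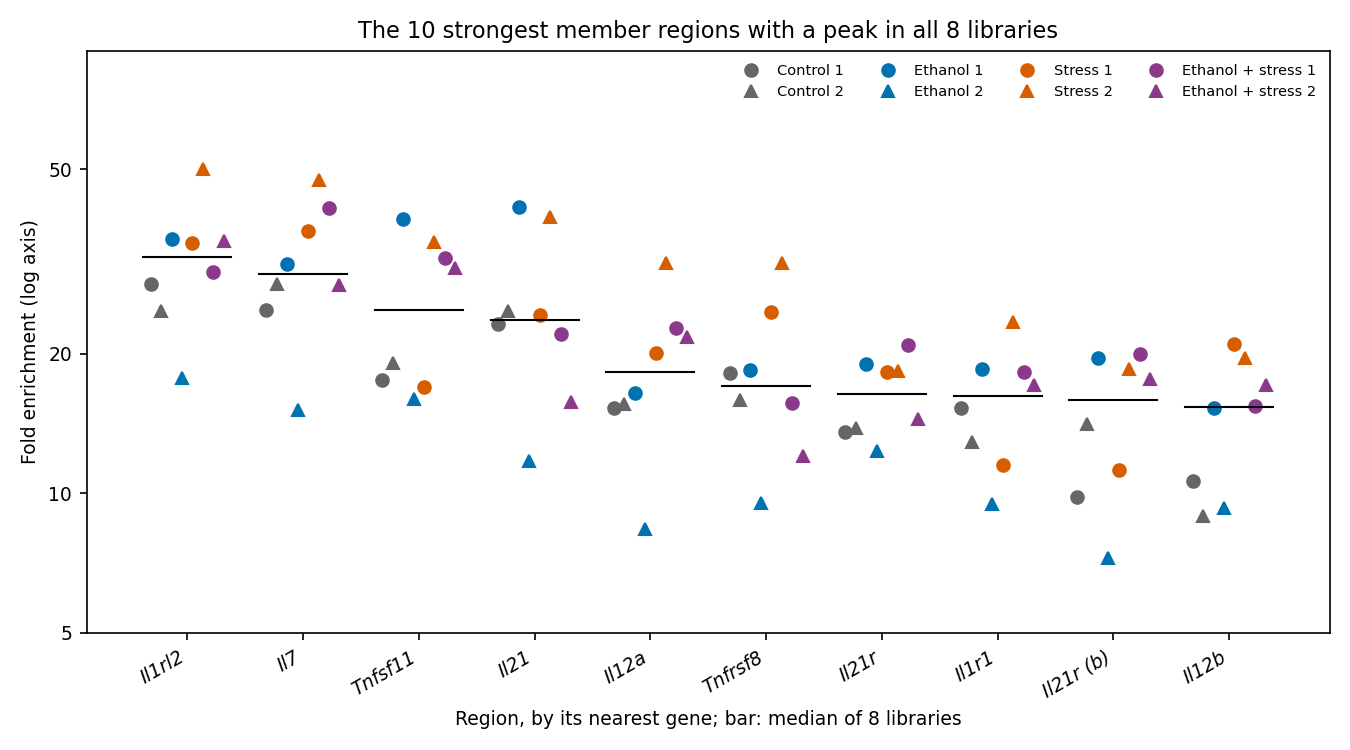
Fold enrichment (log axis) at the 10 regions with the highest median among those with a peak in all 8 libraries, in order of the median (bar). Points are libraries coloured by group, circles replicate 1 and triangles replicate 2, and (b) marks a second region near Il21r. Medians fall from 32.3 near Il1rl2 to 15.4 near Il12b, and Ethanol 2 is lowest in 9 of 10.

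Whether fold enrichment differed between groups was tested with limma on log2 fold enrichment, centred on each library's median, over the 8901 regions with a peak in all 8 libraries. Of these, 46 belonged to the genes described here. None of the 46 passed an adjusted p of 0.05 (Benjamini-Hochberg over 8901 regions) in any comparison. The shares of all regions that passed were 1.17% for Ethanol against Control, 3.58% for Stress, 2.29% for Ethanol + stress, 2.51% for separated against unseparated and 1.35% for ethanol-exposed against unexposed. At such rates 46 regions are too few to read much from a count of 0. Unadjusted p was under 0.05 in limma for 4, 3, 2, 5 and 5 of the 46. The median log2 difference of the 46 was -0.18, -0.13, -0.11, -0.04 and -0.07 in the same order, against -0.01, 0.00, -0.02, -0.01 and -0.01 for all regions. These medians shifted when 1 library was left out. In Ethanol they ran from -0.28 (without Control 1) to -0.15 (without Ethanol 1), and in Stress from -0.27 (without Control 1) to -0.06 (without Stress 2). In Ethanol + stress they ran from -0.18 (without Control 1) to -0.05 (without Control 2). For separated against unseparated they ran from -0.08 (without Control 1) to 0.03 (without Ethanol 1). That was the only comparison in which leaving out a library changed the sign. For ethanol-exposed against unexposed they ran from -0.13 (without Stress 2) to -0.03 (without Control 2). Without centring, the medians of the 46 were -0.10, 0.22, 0.05, 0.18 and -0.12 in the order of comparisons above. The sign thus changed in Stress, in Ethanol + stress and for separation. Those of all regions were then 0.07, 0.36, 0.15, 0.21 and -0.06.

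The region with the smallest p lay 154261 bp downstream of Ifng. Its folds were 22.4 and 18.2 in Control, 13.8 and 8.66 in Ethanol, 13.4 and 18.1 in Stress, and 16.5 and 13.5 in Ethanol + stress. Both Control values were above all others. The log2 difference of Ethanol from Control was -0.97 ± 0.29 (SE, limma, adjusted p = 0.0925), that of Stress -0.73 ± 0.29 (adjusted p = 0.159) and that of Ethanol + stress -0.60 ± 0.29 (adjusted p = 0.316), comparisons that share the Control libraries. With quantile normalization the Ethanol difference was -1.03 with adjusted p = 0.0452.

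The next smallest p values were as follows. Near Ifnar2, a chain of the type I interferon receptor, folds were 9.82 and 14.1 in Control and 8.64 and 5.18 in Ethanol, a log2 difference of -0.90 ± 0.30 (limma, adjusted p = 0.137). The region near Tnfrsf8 differed by -0.63 ± 0.21 between ethanol-exposed and unexposed libraries (adjusted p = 0.118). That near Il12a was higher by 0.59 ± 0.21 in separated libraries (adjusted p = 0.114), from 15.3 and 15.6 in Control and 16.5 and 8.396 in Ethanol to 20.1, 31.4, 22.8 and 21.7, with no overlap in fold. That near Il12b had a difference of 0.54 ± 0.21 (adjusted p = 0.167), and its 4 separated folds, 15.5 to 21.0, were above all 4 others, 8.96 to 15.2. That near Il4ra, the IL-4 receptor chain, had -0.77 ± 0.30 in Stress (adjusted p = 0.145), the intron of Il34, a microglial growth factor, -0.79 ± 0.31 in Ethanol (adjusted p = 0.233) and the intron of Tnfsf11 -0.77 ± 0.30 in Ethanol + stress (adjusted p = 0.173). On simulated shifts put into the Stress comparison over 8901 regions, this test recovered 18% of log2 shifts of 1 and 83% of shifts of 2. A log2 shift of 1 between 2 and 2 libraries would thus mostly be missed. The comparisons of 4 against 4 libraries were not simulated.

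The regions also shared sequence that the choice of genes did not use. Over the 46 regions with a peak in all 8 libraries, 15 (32.6%) held an unbroken run of alternating c and a, or t and g, of at least 20 bases, against 24.4% of all regions with a peak in 8 libraries. Those 15 regions had a median of 6 CpG and the other 31 a median of 22. The median of the 46 was 0.78 CpG per 100 bp, against 2.11 for all 8901 regions with a peak in 8 libraries. Median fold enrichment was 11.8 with such a run and 13.3 without. The regions at Ifna2 and Ifna11 held no run of that length, the longest being 13 bases in each. Over all 516 regions the share with a run was 26.4%, against 22.6% of all, and the median was 1.30 CpG per 100 bp against 1.41.

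**Figure D5:**
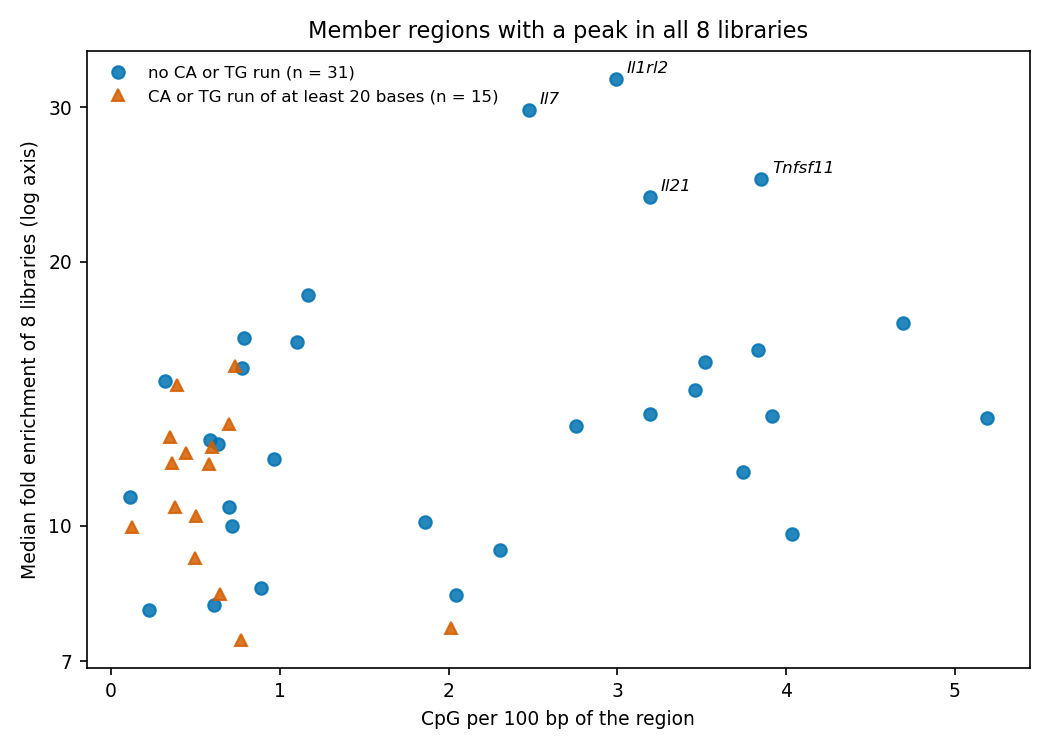
CpG per 100 bp (horizontal) and median fold enrichment over the 8 libraries (vertical, log axis) for the 46 regions with a peak in all 8 libraries. Triangles are the 15 regions with a run of at least 20 bases of alternating c and a, or t and g, and circles the other 31. The strongest 4 regions, near Il1rl2, Il7, Tnfsf11 and Il21, carry no run, and their medians were 32.3, 29.8, 24.8 and 23.7.

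The strongest regions were mostly repeats with common sequence. Of the 10 strongest, 6 were over 90% repeat-masked. The regions near Il7 and Il21 shared an identical stretch of 192 bases, those near Il1rl2 and Il7 of 145 and those near Il1rl2 and Il21 of 125, on either strand. Within the printed windows, Il7 and Il1rl2 shared 62 identical bases in opposite orientation. A pair of regions near Tnfsf11 shared 417 bases, and the stronger of these shared 118 with a region near Il12a. The regions near Il12b and Il7r shared 109 bases. The 53 regions compared were the 46 with a peak in all 8 libraries and the 7 separation regions. In all, 10 of the 53 shared at least 80 identical bases with another, the separation region near Il1f8 among them. Reads from such copies can be placed at more than 1 site, so the values of these regions may mix copies, and their part in the differences between libraries was not tested.

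The CpG content of the promoters themselves did not single out the genes with a promoter peak. In the RefSeq promoter sequences of GRCm38, 250 bases before to 50 after the start site, genes with a promoter peak had a median of 6 CpG (25 with a sequence) and those without one 6 (75 with a sequence), against 7 over 27025 genes.

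A list of 80 related genes was also examined. It ran from JAK kinases, STAT factors, interferon regulatory factors, NF-kB, TRAF adaptors and SOCS inhibitors to receptors and ligands with other names. A peak was found for 63, and a promoter peak for 12. None of the 12 was gained or lost in any group, which at the background shares of 2.6%, 9.05% and 5.76% gained is too few promoters to read. Stat5b, a STAT factor used by many interleukin receptors, and Edar, a TNF receptor relative, had a promoter peak in all 8 libraries, Ngfr, the low-affinity neurotrophin receptor, in 7, and Irak3, an inhibitor of IL-1 receptor signalling, in 6.

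Of the classical cytokines, Il1b, Il2, Il6 and Ifnb1 had no promoter peak in any library, and neither did Il4 or Ifng. Il1b had 8 regions, none in the promoter and each seen in at most 4 libraries, with 6 of them 58476 to 74216 bp upstream. Il6 had a region 117820 bp upstream with peaks in 5 libraries, at 6.83 in Ethanol 1, 9.25 and 7.38 in Stress, and 8.16 and 8.89 in Ethanol + stress, and none in Control or Ethanol 2. The other 2 Il6 regions were seen in 1 library each. Il4 had a region in its intron, at 7.71 and 5.54 in Ethanol and 5.35 in Stress 2, and another 7419 bp upstream with peaks in 4 treated libraries. Ifnb1, the interferon beta gene, had 3 regions seen in Stress and in Ethanol + stress 1, and Il2 had 2 regions seen in Ethanol 1 and Ethanol + stress 1. Il1b had 2 peaks in Control 1 and 1 in Control 2, while the regions of Il2, Il4, Il6, Il10 and Ifnb1 had none there. Of all 516 regions 64.9% had no peak in either Control library, and of all regions in the lists 61.8%.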

How the data were processed

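MeDIP-Seq libraries of hippocampal DNA from 4 groups (2 enriched libraries each) were used as the peak lists that the authors deposited. The authors aligned reads to mm10 with HISAT2 2.1.0 and called peaks per library with MACS against the input of the group. Per the file headers, each deposited peak has a fold enrichment (a ratio to input), a -log10 q-value, used for ranking and the stricter threshold, and a nearest gene with its class. A summit tag score is also deposited and was not used. Read counts and depth are not analysed here.

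Peaks sharing at least 1 bp were merged over libraries into regions. Promoter peaks have the summit within 2000 bp of the start site. The genes and lists were chosen with earlier results of these data known. Presence was counted, or tested with Fisher's exact test (scipy 1.17.1), and log2 fold enrichment at regions with a peak in all 8 libraries was tested with limma 3.58.1 in R 4.3.3 with all 8 libraries in the fit. P-values were adjusted over all regions by Benjamini-Hochberg. The test was tried on simulated data. Nothing in the labels gives a batch. Genes named are those gained or lost at the promoter, with a promoter peak in 7 or 8 libraries, in a region of 4 libraries alone, with the strongest 5 non-promoter gained or lost regions per group, with the 10 highest medians, with the 3 smallest limma p per comparison, with the 5 most regions, or among 10 classical cytokines. Other genes with few promoter peaks were named to complete counts. Alternatives were other promoter windows, a -log10 q of at least 10, equal peak numbers, summit-based regions, other scalings and leaving out each library.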

Additional observations from a re-analysis of the deposited data

How the results depend on the processing

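Results were recomputed with equal numbers of peaks per library (the 22805 strongest), a -log10 q of at least 10, other promoter windows, summit-based regions and each library left out. With equal numbers of peaks, gained promoters numbered 0 in Ethanol, 0 in Stress and 1 in Ethanol + stress, regions gained and lost were 3 and 8, 12 and 10, and 9 and 10, regions of separated and of ethanol-exposed libraries alone were 0 each, those of unseparated and of unexposed libraries alone were 1 each, and separated exceeded unseparated libraries by 1.5 promoter genes and 0.0406 percentage points of peak share. With a promoter window of 1000 bp, 1 promoter was gained in Ethanol + stress and the separation difference was 2 genes. With 5000 bp, 2, 4 and 5 promoters were gained in Ethanol, Stress and Ethanol + stress. The counts in this paragraph are of the genes described here alone, without the share over all genes or regions. Lost regions were 2 in Ethanol and 3 in Ethanol + stress when regions were built from summits within 250 bp, and 2 in Ethanol + stress at a -log10 q of at least 10. With a library left out, a group is called from its other library alone, so counts can grow by construction. Over the 8 omissions, gained promoters ranged from 1 to 8 in Ethanol, 2 to 10 in Stress and 3 to 10 in Ethanol + stress, and lost ones from 0 to 1 in Ethanol and in Stress. Gained regions ranged from 12 to 113, 46 to 144 and 33 to 111, and lost regions from 1 to 29, 2 to 30 and 1 to 29. The highest values came without Ethanol 2, Stress 1, Ethanol + stress 2 or, for lost regions, Control 2. Regions of separated libraries alone ranged from 7 to 14 (highest without Ethanol 1), of ethanol-exposed libraries alone from 1 to 2, and of unexposed libraries alone from 0 to 1.

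In limma, 0 of the 46 regions were called under no centring, the mean fold of peaks, each left-out library or a peak in at least 6 of 8 libraries (95 regions of these genes there). Quantile normalization called 1, the Ifng region lower in Ethanol. With the replicate block 0 were called. Deviations of equally numbered libraries correlated from -0.10 to 0.14, so the numbers were not taken as pairs. Without centring, the median log2 difference of all regions moved by 0.35 in Stress, 0.16 in Ethanol + stress, 0.22 for separation, 0.08 in Ethanol and -0.05 for ethanol exposure. An interaction of separation and ethanol, added after seeing the data, called 0 of the 46 regions. Over all 8901 regions it called 58 higher and 115 lower. No read depth is analysed here, so how much of the difference in peak numbers between libraries comes from depth was not tested.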
